A study of Saccharomyces cerevisiae with 24 samples.

Results

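The genes described here encode the cytosolic translation apparatus outside the ribosome in budding yeast: 18 initiation factor genes, 8 elongation factor genes, 2 termination factor genes and 18 aminoacyl-tRNA synthetase genes. They were the 46 rows of the deposited table, of 6612 transcripts in all, whose symbol is on a list of translation factors and synthetases. RNA was sequenced from 24 samples, 2 for each of 3 strains in each of 4 conditions. The K655/657Q strain carries glutamine in place of the pair of lysines in its name in Sfp1, a zinc finger activator of ribosomal protein (RP) and ribosome biogenesis (RiBi) genes, as a mimic of the acetylated lysines. The K655/657R strain carries arginine at both positions, as a form that cannot be acetylated, and WT carries the unchanged lysines. The labels name all 3 strains LPY, with the tag SFP1-MYC::KanMX, so that by the labels WT is itself a tagged strain. They give each strain the same mutant alleles at the can1, trp1, leu2, ura3, his3 and ade2 loci. The strain table of the study instead describes strains tagged SFP1-13MYC::KanMX in the LPY3431 background, which it lists with other his3, trp1 and ura3 alleles and with none at can1 or ade2. That table also lists K655/657R and K655/657Q strains without a tag in the W303 background, whose alleles at these loci are those on the labels. Which background and marker alleles the samples had, and whether Sfp1 was tagged, was not settled. Cells were taken in raffinose (2%, the 0 min point), 15 min and 30 min after glucose was returned to 2%, and in glucose-rich YPD medium. The labels do not say whether the YPD samples came from the cultures that were shifted to raffinose. If they did not, a difference between experiments cannot be told apart from one between media. The study describes collecting cells at several times after glucose was added. Whether the 0, 15 and 30 min samples came from the same cultures is not said in the labels, and the fit took all samples as independent. Nothing in the labels says that the replicates came from separate clones, so the p-values measure the spread between these samples.

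Translation begins when initiation factors bring the small ribosomal subunit, the initiator tRNA and the mRNA together. Elongation factors then deliver each charged tRNA and move the ribosome, release factors end the chain, and synthetases load each tRNA with its amino acid. In yeast the genes for these proteins are abundantly transcribed in growing cells, and transcription of the synthetase genes is also known to respond to amino acid supply through the activator Gcn4.

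Values are TPM, a level per transcript length that sums to a fixed total in each library, divided by a size factor for each library, called scaled TPM here. A gene was called changed where limma gave an adjusted p under 0.05 and the fold change was at least 1.5. K655/657R replicate 2 at 30 min was left out, because the study removed it as an outlier in a principal component analysis. It also stood apart from all other libraries here, with a size factor of 0.575 against 0.802 to 1.14 in the other 23. Among 45 members its values differed from replicate 1 by at least 1.5-fold for 10 genes, with log2 differences between -1.28 and 1.04. With all 24 libraries every count of called members stayed within 1 of the count given here. SFP1 itself had 9.76 scaled TPM in that library and 10.7 to 21.4 in the others. Since the alleles are point mutations, its level does not check the labels. The depth of the libraries is unknown, as TPM keep no read counts.

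HYP2 (YEL034W, chromosome V, 85676 to 86149, forward strand), which encodes the elongation factor eIF5A, was listed at 0 in 21 of 24 libraries and at no more than 5.71e-08 in the rest. Its row could therefore not be tested, and 45 of the 46 members passed the filter of a mean TPM of 1. The row YEL034C-A, whose identifier places it on the other strand of the same locus, had 737 to 1650 scaled TPM. Its part in the empty HYP2 row was not tested. ANB1, the paralog of HYP2 that yeast is known to use when oxygen is low, shares 6.76% of the 31-base words of HYP2.

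Sequences upstream of the start codons were examined for 4 motifs on both strands, in 300-base windows of the R64 genome. AAAATTTT is the core of the RRPE element and GATGAG that of the PAC element, both known from RiBi promoters. TGACTC is the core of the Gcn4 site, and the core of the Rap1 site was searched as well. AAAATTTT reads the same on both strands and was counted once. It was present in 31 of the 46 members (67.4%), against 9.42% of 6001 windows of all genes, 80.8% of 73 RiBi genes and 6.57% of 137 RP genes. GATGAG was present in 9 members (19.6%), against 19.1% of all genes and 91.8% of the RiBi genes. Both stood together in only 5 members. AAAATTTT was found before 12 of 18 initiation, 7 of 8 elongation, 2 of 2 termination and 10 of 18 synthetase genes, at a median distance of 161 bases from the start codon over 35 matches. TGACTC was found before 6 members, all of them synthetase genes, among them DED81 and ALA1, which is 33.3% of the synthetase windows against 7.77% of all genes. In VAS1 a match to the Rap1 core overlaps the TGACTC match by 2 bases. For 10 members, among them TEF2, PRT1 and TIF34, none of the 4 motifs was found. These matches describe the letters and do not show binding, and the lack of a match does not show that a site is absent.

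The 5 sequences below belong to genes on which the results turn, and are shown 5′ to 3′ towards the start codon, without the 80 bases next to it. They were read from RefSeq's R64 genome. Capitals mark motif matches, where CTCATC is GATGAG on the opposite strand. The window of SUI1 (YNL244C) lies at chrXIV:187577-187796 on the reverse strand, NIP1 (YMR309C) at chrXIII:895507-895726 on the reverse strand, YEF3 (YLR249W) at chrXII:636480-636699 on the forward strand, SUP35 (YDR172W) at chrIV:808024-808243 on the forward strand and DED81 (YHR019C) at chrVIII:143639-143858 on the reverse strand.
SUI1: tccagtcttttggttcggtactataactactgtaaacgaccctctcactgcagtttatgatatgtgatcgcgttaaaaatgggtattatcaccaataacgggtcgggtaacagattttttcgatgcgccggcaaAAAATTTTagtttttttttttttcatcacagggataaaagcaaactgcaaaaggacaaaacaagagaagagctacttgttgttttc
NIP1: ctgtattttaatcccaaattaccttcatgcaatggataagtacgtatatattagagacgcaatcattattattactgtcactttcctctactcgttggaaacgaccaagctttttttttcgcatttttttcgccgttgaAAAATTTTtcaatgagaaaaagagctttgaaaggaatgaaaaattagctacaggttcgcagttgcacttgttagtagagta
YEF3: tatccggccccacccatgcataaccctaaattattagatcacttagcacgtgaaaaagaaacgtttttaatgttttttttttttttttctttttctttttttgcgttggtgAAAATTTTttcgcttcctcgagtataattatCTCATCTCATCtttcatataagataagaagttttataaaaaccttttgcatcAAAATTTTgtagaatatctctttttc
SUP35: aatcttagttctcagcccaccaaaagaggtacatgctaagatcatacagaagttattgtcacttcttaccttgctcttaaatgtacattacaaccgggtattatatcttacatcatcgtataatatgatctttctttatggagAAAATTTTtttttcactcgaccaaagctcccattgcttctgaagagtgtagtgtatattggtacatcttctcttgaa
DED81: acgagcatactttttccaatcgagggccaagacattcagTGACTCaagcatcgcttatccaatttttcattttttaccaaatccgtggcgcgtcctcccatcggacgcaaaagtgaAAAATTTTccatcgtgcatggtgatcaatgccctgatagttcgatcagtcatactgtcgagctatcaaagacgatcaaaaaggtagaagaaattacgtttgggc

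SUI1, NIP1 and SUP35 each carry a single AAAATTTT. YEF3 carries it at 2 places with 2 overlapping PAC cores between them. DED81 pairs AAAATTTT with a Gcn4 core.

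Among the members TEF1 and TEF2, which both encode eEF1A, the carrier of charged tRNA, were at medians of 3660 and 5640 scaled TPM over the 23 libraries. TIF4632, one of the genes for the scaffold eIF4G, was the lowest at a median of 9.38. All members together took 1.52 to 1.72% of the TPM in the raffinose libraries, against 1.49 to 1.94% in YPD. They took 1.82 to 2.23% at 15 min and 2.12 to 2.53% at 30 min. The 137 RP genes took 23.2 to 24.8% in raffinose, against 27.4 to 32.6% in YPD. TPM sum to a fixed total, so that a change in the share of one group shifts the values of all other genes. The size factors were applied to centre each library on its typical gene. In RNA from a bulk culture, fewer cells that express a gene and less RNA per cell cannot be told apart. The least variable member was GLN4, the glutaminyl-tRNA synthetase gene, with a highest value 1.55 times its lowest. The most variable were DED81, YEF3 and WRS1, at 3.1, 3.15 and 3.16 times.

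**Figure D1:**
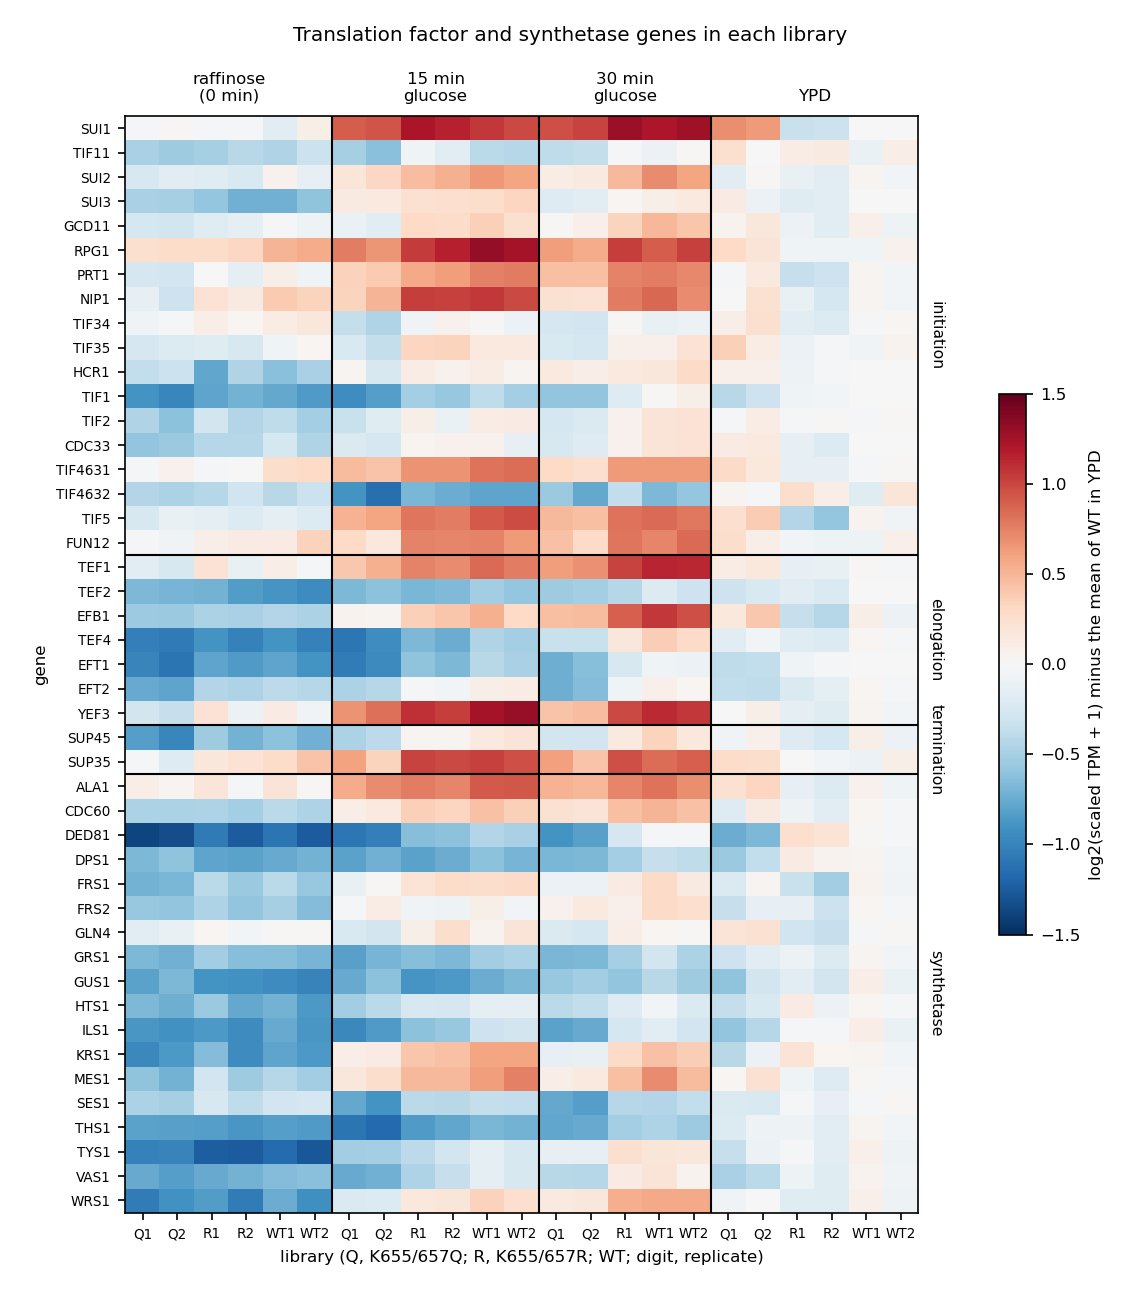
Heat map of the 45 tested members (rows, by class) in the 23 libraries used (columns, by condition and then strain), as log2(scaled TPM + 1) minus the mean of WT in YPD. Rows such as SUI1, RPG1 and YEF3 are red after glucose in every strain, with paler red in K655/657Q for RPG1 and YEF3, while most synthetase rows are blue in raffinose.

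The first comparison asked how growth on raffinose changes these genes relative to YPD. In WT, 17 of 45 members fell and none rose, against 18.5% of all 6357 genes called down and 19% called up. Of the synthetase genes 11 of 18 fell, with a class median log2 fold change of -0.70, and of the elongation genes 3 of 7 (TEF4, TEF2 and EFT1). Only 2 of 18 initiation genes (TIF1 and SUI3) and SUP45 of the 2 termination genes fell. The median was -0.04 for initiation genes and 0.03 for all genes. Of the 73 RiBi genes, a list chosen by function, 66 rose (median 1.29), while 107 of 137 RP genes fell (median -0.86).

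These directions depend on the scaling. In TPM as deposited, where the median of all genes lay at 0.40, 5 members rose and 2 fell in WT, and scaled to ACT1, with a median of all genes of 0.66, 15 rose and none fell. ACT1 itself had 1600 and 1640 scaled TPM in WT in raffinose, against 2710 and 2650 in YPD. The member median lay below that of all genes by a similar amount each time, with differences of -0.47 in scaled TPM, -0.43 in TPM as deposited and -0.39 scaled to ACT1. Rises and falls here are therefore relative to the middle of the transcriptome. For the other scalings the share of all genes called is not given, here or below. Counts with those scalings therefore do not show a change particular to the members.

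TYS1, the tyrosyl-tRNA synthetase gene, was the lowest member. It had 45.1 and 41.4 scaled TPM in WT in raffinose, against 107 and 96.8 in YPD, a log2 fold change of -1.22 (SE 0.08, adjusted p = 3.5e-09). Raffinose values were below both YPD values by more than the spread of either pair. DED81, the asparaginyl-tRNA synthetase gene, had 162 and 145 in raffinose, against 352 and 342 in YPD (-1.18, adjusted p = 7.9e-10). ALA1, the alanyl-tRNA synthetase gene, was the highest synthetase, with 67.3 and 59.2 in raffinose, against 61.6 and 55.9 in YPD. Its pairs overlapped and it did not pass the test (0.10, adjusted p = 0.29). The 4 further cytosolic synthetase genes were also lower, and 2 of them fell, with ARC1, a tRNA-binding cofactor of synthetases, at -0.69 and YDR341C at -0.95.

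Among elongation genes TEF4, which encodes the gamma subunit of the exchange factor eEF1B, fell to 312 and 289 scaled TPM in raffinose, against 594 and 573 in YPD (-0.96, SE 0.07, adjusted p = 5e-09). YEF3, the gene for the fungal factor eEF3, did not pass the test, with 648 and 573 in raffinose, against 609 and 577 in YPD (0.04, adjusted p = 0.7). The termination genes had opposite signs. SUP45, encoding eRF1, which reads the stop codon, fell to 93.5 and 86.5, against 153 and 135 in YPD (-0.67, adjusted p = 4.2e-06). SUP35, encoding the GTPase eRF3, had 44.1 and 49.1 in raffinose, against 34 and 38.7 in YPD, below the 1.5-fold threshold (0.35, adjusted p = 0.0036).

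RPG1, encoding the eIF3a subunit of the complex that bridges mRNA and the small ribosomal subunit, was the highest initiation gene. It had 34.3 and 35.7 scaled TPM in WT in raffinose, against 22.8 and 25 in YPD (0.53, SE 0.07, adjusted p = 5.1e-06), just under the fold threshold. It passed at 0.93 in TPM as deposited, at 0.62 with upper quartile scaling, at 1.22 scaled to ACT1 and at 0.60 without WT YPD replicate 2. TIF1, one of the 2 genes for the helicase eIF4A, was the lowest initiation gene with 428 and 403, against 729 and 725 in YPD (-0.81, adjusted p = 1.8e-08).

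In K655/657Q, 15 members fell in raffinose and none rose, against 9.11% of all genes called down, and in K655/657R 13 fell and none rose, against 16.9%. Called up were 11.5% and 17.4% of all genes in these strains. In TPM as deposited 4 members fell in K655/657Q and none rose, while K655/657R had 12 up and 2 down. Scaled to ACT1, 6 fell in K655/657Q and none rose, and K655/657R had 13 up and 1 down. The median of all genes was 0.19 in K655/657Q and 0.42 in K655/657R in TPM as deposited, and 0.12 and 0.57 scaled to ACT1. DED81, EFT1, KRS1, TEF4, THS1, TYS1 and WRS1 fell in all 3 strains. The share of all genes that did so was not counted. Of these, EFT1 is nearly identical to EFT2, and the sum of both was not called in any strain. That sum changed by -0.49 in K655/657Q, -0.47 in K655/657R and -0.56 in WT. In K655/657Q 17 of 18 initiation genes were lower, with a median of -0.44, and SUI1, TIF11, CDC33 and TIF2 fell, while in WT 12 of 18 were lower. RiBi genes, of which 66 rose in WT, had 1 up and 6 down in K655/657Q.

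**Figure D2:**
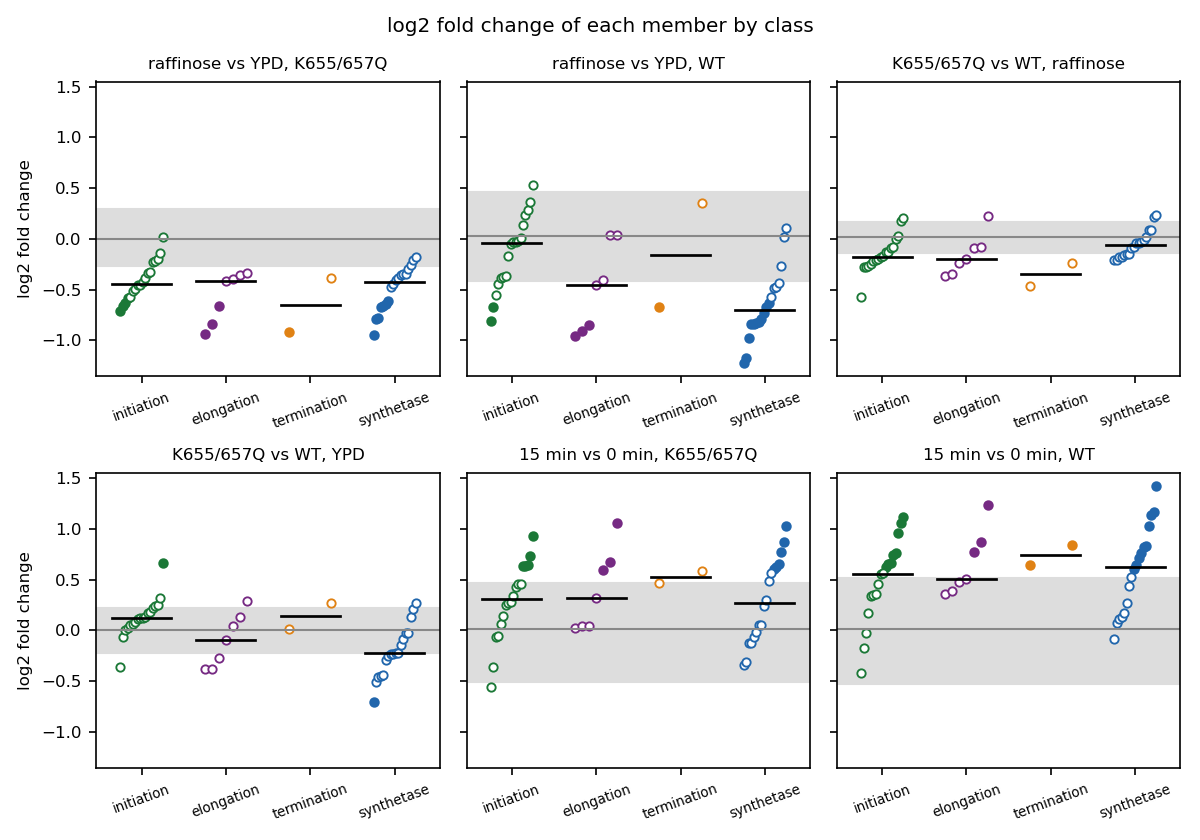
log2 fold change of each tested member (points, by class; filled where called) in 6 comparisons, with the class median (black bar), the median of all genes (grey line) and the quartiles of all genes (grey band). In WT in raffinose the synthetase points centre on -0.70 and the initiation points on -0.04, and at 15 min every class median lies above the median of all genes in both strains.

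The next comparison set the acetyl-mimic against WT in YPD, where 63 of the 73 RiBi genes rose. Of the 45 members 1 rose and 1 fell, against 13.7% of all genes called either way (6.69% up and 7.06% down), and the member median was 0.01. SUI1, the gene for eIF1, which guards start codon choice, rose to 727 and 696 scaled TPM in K655/657Q, and had 356 and 358 in K655/657R, against 447 and 450 in WT. The log2 fold change of K655/657Q over WT was 0.67 (SE 0.07, adjusted p = 1.3e-06). The pairs of the 3 strains did not overlap, with K655/657Q the highest. DED81 fell to 206 and 218 in K655/657Q, and had 412 and 400 in K655/657R, against 352 and 342 in WT (K655/657Q over WT -0.71, SE 0.07, adjusted p = 1.1e-06). SUI1 kept its call in every scaling. DED81 was at -0.52 in TPM as deposited and at -0.27 scaled to ACT1, under the fold threshold in both. Without K655/657Q YPD replicate 2, 4 members were called. The member calls were 1 up and none down in TPM as deposited, and 11 up and none down scaled to ACT1. The median of all genes was 0.18 in the former and 0.40 in the latter.

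In K655/657Q in YPD, 16 of 18 initiation genes were higher (median 0.12) and 15 of 18 synthetase genes lower (median -0.23), with all genes at 0.01. The classes were not compared by a test, and these signs depend on the scaling. Scaled to ACT1 the median of all genes was 0.40, that of the members was 0.45, and the values of TIF1 (0.08) and EFT2 (0.07) were above 0 without passing the test. With the scaling used here TIF1 was the lowest initiation gene at 544 and 588 scaled TPM in K655/657Q, against 729 and 725 in WT (-0.36). Among elongation genes the span ran from EFB1, the exchange factor subunit gene, with 850 and 1010 in K655/657Q, against 807 and 720 in WT (0.28), to EFT2, a gene for the translocase eEF2, with 724 and 718, against 955 and 921 in WT (-0.38). SUP35 had 44.2 and 43.9, against 34 and 38.7 in WT (0.27). SUP45 had 139 and 151, against 153 and 135 in WT (0.01). ALA1, at 68.8 and 73.4 against 61.6 and 55.9 in WT, was the highest synthetase gene (0.27). None of these 6 passed the fold threshold.

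Between K655/657R and WT no member was called in YPD, where 1.64% of all genes were, and none in raffinose, where 0.173% were. By limma 18 members in YPD and 5 in raffinose had an unadjusted p under 0.05, against 26.2% and 15.9% of all genes, and 8 and 1 an adjusted p under 0.05. In YPD 39 of 45 members were lower in K655/657R, with a median of -0.13. TIF5, the gene for eIF5, was the lowest at 36.8 and 33.4 scaled TPM in K655/657R, against 52.2 and 48.7 in WT (-0.51, adjusted p = 0.00043).

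In raffinose no member was called between K655/657Q and WT, against 3.57% of all genes, with 25 members at an unadjusted p under 0.05 by limma (34.2% of all genes) and 13 at an adjusted p under 0.05. Of the 45, 36 were lower in K655/657Q (median -0.15), as were all 73 RiBi genes, of which 25 fell. NIP1, encoding eIF3c, came nearest to a call with 27.1 and 23.6 scaled TPM in K655/657Q, against 39.1 and 37.5 in WT (-0.58, SE 0.09, adjusted p = 0.00065). It passed at -0.59 in TPM as deposited and with a pseudocount of 0.1, and at -0.72 scaled to ACT1. The count of calls was 1 without WT raffinose replicate 2 and 1 without K655/657Q raffinose replicate 1. SUP35 had 35.6 and 31.6, against 44.1 and 49.1 in WT (-0.46), and SUP45 had 80.5 and 72.3, against 93.5 and 86.5 (-0.23). EFT2 had 556 and 543, against 717 and 698 in WT (-0.37), while TEF2 had 5120 and 5010, against 4420 and 4240 in WT (0.23). The highest initiation gene was HCR1 (eIF3j), with 76.4 and 79, against 64 and 70.7 in WT (0.20). Among synthetases GUS1, for glutamyl-tRNA, had 74.8 and 81.6, against 67.5 and 65 in WT (0.24), and SES1, for seryl-tRNA, had 104 and 102, against 118 and 121 (-0.21).

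Whether the effect of K655/657Q differed between the media was tested as a difference of differences. It differed for 4 members, against 20.1% of all genes (10.7% up and 9.39% down). SUI1 (-0.63, SE 0.10, adjusted p = 9e-05), NIP1 (-0.69, SE 0.13, adjusted p = 0.00063) and SUP35 (-0.73, SE 0.13, adjusted p = 0.00046) were relatively lower in K655/657Q in raffinose than in YPD. GUS1 was relatively higher (0.68, SE 0.14, adjusted p = 0.00097). SUI1 had 440 and 455 scaled TPM in K655/657Q in raffinose, against 402 and 477 in WT, where the pairs overlapped. NIP1 in YPD had 29.7 and 34.9 in K655/657Q, against 30.5 and 28.7 in WT. GUS1 in YPD had 86 and 108, against 141 and 122 in WT. The value of GUS1 depends on the scaling, as it was 0.48 in TPM as deposited and 0.10 scaled to ACT1 and lost its call in both. SUI1, NIP1 and SUP35 kept theirs. The splits over the members were 1 up and 3 down in scaled TPM, none up and 8 down in TPM as deposited, and none up and 26 down scaled to ACT1. The median of all genes was 0.01, -0.17 and -0.52 in the same order.

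**Figure D3:**
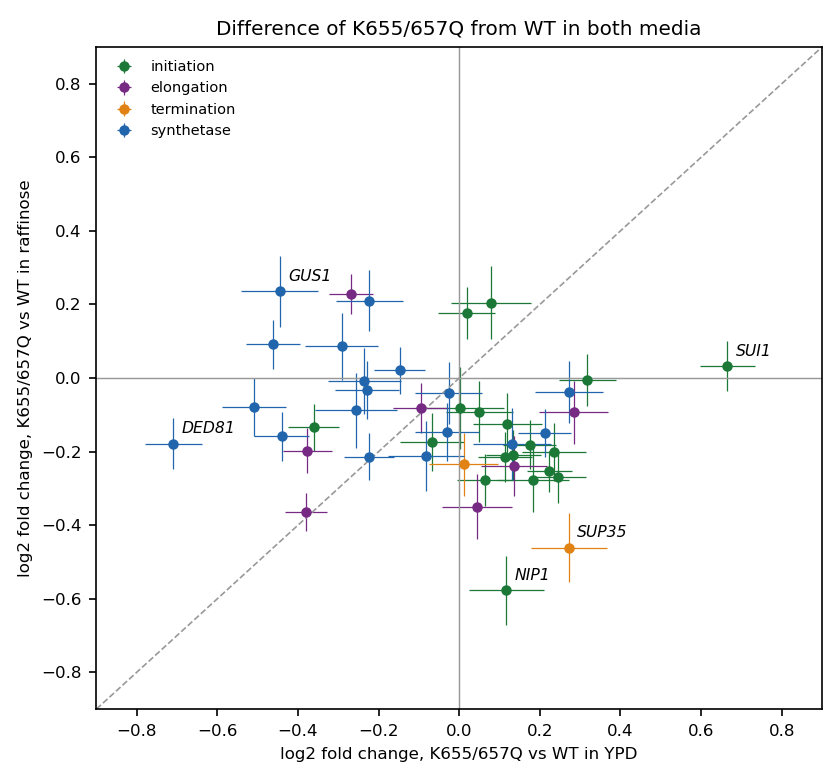
Difference of K655/657Q from WT in YPD (x axis) and in raffinose (y axis) as log2 fold changes of the 45 tested members, with standard errors (bars) and the line of equal effect (dashed). SUI1 lies far to the right (0.67, 0.03), NIP1 and SUP35 lie below zero in raffinose only, GUS1 lies to the upper left (-0.45, 0.24) and DED81 is the leftmost point (-0.71).

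The last comparisons followed the return of glucose. Relative to 0 min, 14 of 45 members rose at 15 min in K655/657Q (19.1% of all genes up, 21.8% down), 22 in K655/657R (22.4% up, 24.5% down) and 23 in WT (21.7% up, 22.9% down), and none fell. The member medians were 0.32, 0.54 and 0.60 in the same order. In WT all classes took part, with 8 of 18 initiation, 3 of 7 elongation, 2 of 2 termination and 10 of 18 synthetase genes, and class medians between 0.50 and 0.74 where all genes had 0.02. In TPM as deposited K655/657Q had 6 members up and 1 down, K655/657R 13 up and WT 16 up. Scaled to ACT1, 23 rose in K655/657Q, 37 in K655/657R and 31 in WT. With this scaling the median of all genes was 0.26, 0.42 and 0.21 in that order. In TPM as deposited it was -0.09, -0.17 and -0.12. Without the share of all genes called, these counts do not show a rise particular to the members. The 13 genes that rose in all 3 strains were SUI1, SUI3, PRT1, NIP1, TIF5, TEF1, EFB1, YEF3, CDC60, FRS1, KRS1, MES1 and WRS1. Of these, TEF1 is nearly identical to TEF2, and the sum of both was not called at 15 min in any strain. That sum changed by 0.30 in K655/657Q, 0.36 in K655/657R and 0.55 in WT. How many of all genes rose in all 3 strains was not counted.

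KRS1, the lysyl-tRNA synthetase gene, had the largest rise in WT. In K655/657Q it had 186 and 189 scaled TPM at 15 min, against 88.7 and 94.9 at 0 min (log2 fold change 1.02), and in K655/657R 233 and 236, against 110 and 89.7 (1.23). In WT it had 262 and 262 at 15 min, against 99.9 and 95.2 at 0 min (1.42, SE 0.10, adjusted p = 4.1e-09). YEF3 rose to 946 and 1050 in K655/657Q, against 490 and 466 at 0 min (1.06), and to 1410 and 1470 in WT, against 648 and 573 (1.24, adjusted p = 3.6e-09). TIF5, encoding the GTPase-activating factor of initiation, had 96.1 and 100 at 15 min, against 45.6 and 43.7 at 0 min in WT (1.12). At the lower end SES1 had 113 and 112, against 118 and 121 (-0.08, adjusted p = 0.25). TEF2 had 5660 and 5430, against 4420 and 4240 (0.36), a difference beyond the replicate spread but under the fold threshold. SUP45 rose to 159 and 164, against 93.5 and 86.5 (0.84), and SUP35 to 74.6 and 72, against 44.1 and 49.1 (0.64).

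The calls differed among subunits of one complex. Of the eIF3 genes, RPG1, PRT1 and NIP1 rose in WT at 15 min by 0.75, 0.76 and 0.67. TIF34, for the eIF3i subunit, had 108 and 101 scaled TPM, against 116 and 120 at 0 min, and was not called. TIF35, for another eIF3 subunit, had 161 and 161, against 138 and 148 at 0 min, and was not called either. HCR1, for the loosely bound eIF3j, rose by 0.63. The eIF4G genes had opposite signs. TIF4631 had 61.8 and 62.6, against 41.6 and 42.8 at 0 min, and TIF4632 had 7.1 and 7.11, against 9.5 and 10.2 (-0.42, adjusted p = 0.0031). Neither passed the fold threshold at 15 min in WT. TIF4632 was also below YPD at 30 min, with 8.55 and 7.23 in K655/657Q, against 13.4 and 12.8 in YPD (-0.67), and with 7.77 and 8.43 in WT, against 11.4 and 14.9 in YPD (-0.63, adjusted p = 9e-05).

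**Figure D4:**
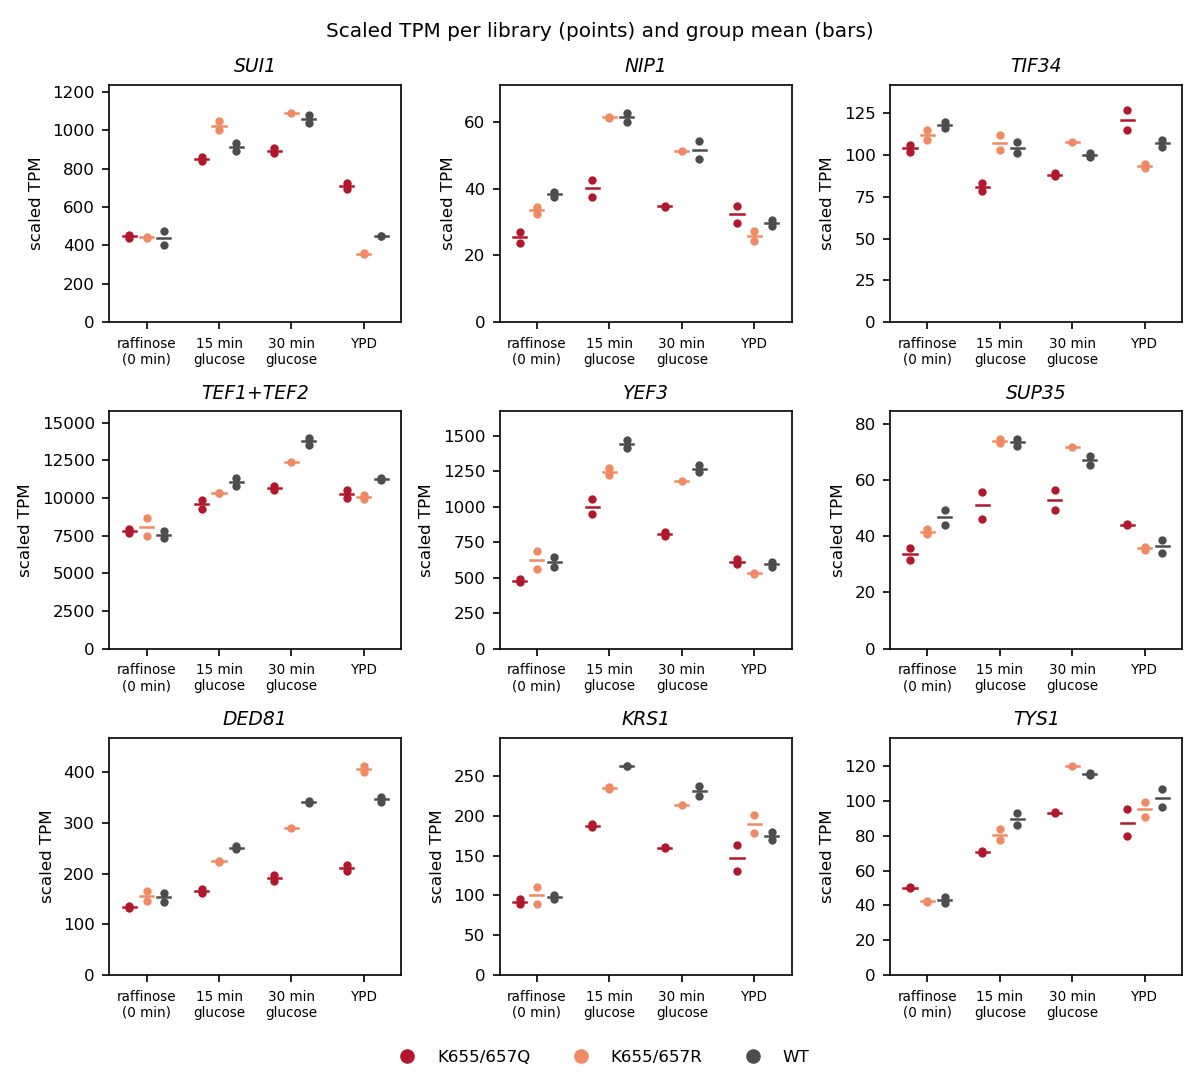
Scaled TPM of 8 members and of the summed pair TEF1+TEF2 in each library (points; K655/657Q, K655/657R and WT from left to right in each condition; bars, group means; K655/657R has 1 library at 30 min). Among the YPD libraries SUI1 is highest in K655/657Q (727 and 696), and DED81 in K655/657Q stays at or below 218 in every condition while WT reaches 352.

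At 30 min 16 members had risen relative to 0 min in K655/657Q (17% of all genes up, 21.3% down), 27 in K655/657R (21.3% up, 24.2% down) and 27 in WT (20.1% up, 22.3% down), and none had fallen. K655/657R has a single library there, assumed to vary like the others. The 0 min libraries are the same as in the 15 min comparison. Of the elongation genes 6 of 7 rose in WT, with a median of 1.05. EFB1 had 561 and 549 scaled TPM at 0 min, 1100 and 940 at 15 min and 1590 and 1490 at 30 min. TEF4 had 312 and 289 at 0 min, 425 and 411 at 15 min and 753 and 714 at 30 min. YEF3 had 1290 and 1240 at 30 min, below both 15 min values. At 30 min against YPD no member rose in K655/657Q and 2 (TIF4632 and THS1) fell, against 16% of all genes called up and 19.5% down. In WT 14 rose, led by SUI1 at 1.24, and 1 fell, against 22.4% and 25.5% of all genes. With other scalings K655/657Q had 3 up in TPM as deposited, 5 up by the upper quartile and 18 up scaled to ACT1, and none down. The median of all genes was 0.18, 0.23 and 0.50 in the same order. Without K655/657Q 30 min replicate 2 the count was 1.

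After glucose the members ran lower in K655/657Q than in WT. At 15 min 43 of 45 were lower (median -0.38, all genes 0.00) and 4 fell (ILS1, SUP45, NIP1 and DED81), against 2.47% of all genes called down and 4.73% either way. At 30 min 45 of 45 were lower (median -0.38, all genes 0.02) and 6 fell (DED81, EFT2, TEF4, YEF3, TIF1 and EFT1), against 2.8% called down and 3.9% either way. Of all genes, 49.4% were lower at 15 min and 47.3% at 30 min. For 43 of the 45 both K655/657Q values lay below both WT values at each time, as they did for 28.9% of all genes at 15 min and 30.1% at 30 min. DED81 had 186 and 197 scaled TPM at 30 min in K655/657Q, against 343 and 340 in WT (-0.83, SE 0.07, adjusted p = 1.2e-06). YEF3 had 796 and 819, against 1290 and 1240 (-0.64), and EFT2 had 562 and 598, against 985 and 955 (-0.74). At 30 min all 137 RP genes were lower too (median -0.45, 19 called), as were all 73 RiBi genes (median -0.36, 6 called). These counts rest on few libraries. The 4 members at 15 min were 2 without WT replicate 1, 2 without K655/657Q replicate 1 and 7 without K655/657Q replicate 2. The 6 at 30 min were 12 without WT replicate 2. They also depend on the scaling. At 15 min 1 member fell in TPM as deposited, 0 with upper quartile scaling and 12 scaled to ACT1. All genes had medians of 0.03, 0.04 and -0.07 in the same order. At 30 min 1 fell in TPM as deposited, where all genes had a median of 0.23, and 2 with upper quartile scaling.

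Tested as a difference of responses from 0 min, the rise to 30 min was smaller in K655/657Q than in WT for DED81 (-0.65, SE 0.10, adjusted p = 0.00059), the only member past both thresholds, against 4.04% of all genes. The value was below 0 for 41 of 45 members, and 13 had an adjusted p under 0.05. For DED81 the values in K655/657Q were 133 and 137 at 0 min, 163 and 170 at 15 min and 186 and 197 at 30 min. In WT they were 162 and 145 at 0 min, 255 and 248 at 15 min and 343 and 340 at 30 min. This call was lost without WT raffinose replicate 2, where no member was left, in TPM as deposited (-0.40) and scaled to ACT1 (-0.49). The count was 2 without WT raffinose replicate 1, K655/657Q raffinose replicate 2 or WT 30 min replicate 2. In the rise to 15 min no member differed between K655/657Q and WT (2.96% of all genes), with 25 at an unadjusted p under 0.05 by limma (20.4% of all genes) and 43 of 45 on the lower side. The count was 2 without WT raffinose replicate 1, 1 without WT 15 min replicate 2 and 1 without K655/657Q 15 min replicate 2. Between K655/657R and WT none differed either (0.283% of all genes), with 6 at an unadjusted p under 0.05 by limma (19.5% of all genes). There 30 of 45 members were on the lower side, with a median of -0.09 where all genes had -0.03.

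The near-identical pairs need their sums. TEF1 and TEF2 differ at 2 of 1377 coding bases, EFT1 and EFT2 at 4 of 2529 and TIF1 and TIF2 at 6 of 1188, so that the division of reads between the members of a pair is uncertain. TEF1+TEF2 had 7790 and 7330 scaled TPM in WT in raffinose, against 11300 and 11200 in YPD (-0.58, adjusted p = 5.3e-07), just under the threshold that TEF2 alone passed. As listed, TEF1 held 35.3 and 34.8% of the pair in K655/657Q in raffinose, against 34.2 and 33.6% in YPD. In WT it held 43.3 and 42.2% in raffinose, against 28.2 and 27.6% in YPD. EFT1+EFT2 fell at 30 min in K655/657Q to 932 and 992, against 1570 and 1530 in WT (-0.69, adjusted p = 5.9e-07). In the same comparison TIF1+TIF2 was not called (-0.53), although TIF1 alone was. In WT at 30 min against 0 min EFT1+EFT2 was not called either (0.56). TIF1+TIF2 fell in WT in raffinose to 987 and 917, against 1450 and 1460 in YPD (-0.61, adjusted p = 8.6e-07). In K655/657Q the change of TIF1+TIF2 in raffinose against YPD was just under the threshold (-0.58). In K655/657Q in YPD it had 1260 and 1380, against 1450 and 1460 in WT (-0.14, adjusted p = 0.11), so that the pair did not pass the test that TIF1 alone passed below the fold threshold.

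Other genes of the pathway were counted from lists chosen by function. Of 18 further cytosolic factors, 5 rose and 7 fell in WT in raffinose, where 19% of all genes were called up and 18.5% down, from NEW1, a factor of late translation and ribosome assembly (0.83), to ANB1 (-3.76). In K655/657Q in YPD, NEW1 rose (0.66) and ANB1 fell (-2.55), and in raffinose MBF1, a coactivator of Gcn4, was the only one called (0.60). At 15 min 6 rose and 2 fell in WT, against 21.7% and 22.9% of all genes, from NEW1 (1.38) to MBF1 (-1.15). Of the 5 subunit genes of eIF2B, the exchange factor of eIF2, GCD2 rose in WT in raffinose (0.66), none was called in K655/657Q in YPD or raffinose, and GCD7 (0.92) and GCD1 (0.88) rose at 15 min. The 4 further cytosolic synthetase genes were not called in K655/657Q in either medium, and YHR020W (1.05) and YDR341C (0.91) rose at 15 min.

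The mitochondrial counterparts were counted in the same way. All 7 mitochondrial translation factor genes rose in WT in raffinose, from GUF1 (0.63) to MEF2 (1.76), both encoding elongation factor-like GTPases, and all 7 fell at 15 min, from IFM1 (-0.60) to MEF2 (-1.59). Of 14 mitochondrial synthetase genes 2, MSR1 (0.69) and DIA4 (0.64), rose in raffinose, a share below the 19% of all genes called up, and 8 fell at 15 min, where 22.9% of all genes were called down, between MSM1 (-0.59) and MSF1 (-1.65). In K655/657Q in YPD only MEF2 of both lists rose (0.61), and in raffinose none was called. With a pseudocount of 5 MSR1, DIA4, GUF1, MSM1, IFM1 and, in K655/657Q, MEF2 no longer passed the fold threshold. Among RiBi genes the called range was 0.71 for LSG1 to 2.94 for the helicase gene DBP2 in raffinose, 0.59 for MPP10 to 2.38 for DBP2 in K655/657Q in YPD, -0.86 for NSA2 to -0.59 for UTP4 in K655/657Q in raffinose, and 0.59 for NSA1 to 1.97 for DBP2 at 15 min. Among RP genes it was -1.38 for RPL9A to 0.87 for RPS14B in raffinose and 0.62 for RPS30B to 2.21 for RPS28B at 15 min, while in K655/657Q only RPS28B rose in YPD (1.08) and none was called in raffinose.

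Many differences were smaller than the fold threshold. By adjusted p alone, limma called 42 of 45 members in raffinose against YPD in K655/657Q, 36 in K655/657R and 35 in WT, against 52.3%, 66.3% and 68.6% of all genes. K655/657Q against WT gave 24 members in YPD (41.8% of all genes), 13 in raffinose (21%), 36 at 15 min (22.4%) and 39 at 30 min (21.1%). K655/657R against WT gave 8 in YPD (11.2%) and 1 in raffinose (0.897%). The rise to 15 min gave 32 in K655/657Q (71.7%), 38 in K655/657R (74.6%) and 38 in WT (73.2%). The rise to 30 min gave 35 in K655/657Q (70.3%), 40 in K655/657R (69%) and 41 in WT (72.3%), and 30 min against YPD gave 30 in K655/657Q (68.2%) and 32 in WT (75.9%). The difference between media gave 24 (37.2%), the 15 min response 9 in K655/657Q (5.82%) and 0 in K655/657R (0.33%), and the 30 min response of K655/657Q 13 (7.9%).

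The members were also split by motif. In WT in raffinose the 6 synthetase genes with TGACTC had a median log2 fold change of -0.82 and the 12 without it -0.62. In K655/657Q against WT at 30 min the medians were -0.54 and -0.30, and in YPD -0.35 and -0.22. Initiation genes with AAAATTTT (12) had a median of -0.03 in WT in raffinose and those without it (6) -0.38. At 15 min in WT these medians were 0.60 and 0.27. In synthetase genes the order was the opposite, with -0.74 for those with AAAATTTT (10) and -0.60 for those without it (8) in raffinose, and 0.56 and 0.73 at 15 min. Over all members the medians in raffinose were -0.43 with AAAATTTT and -0.44 without it, and for TGACTC in synthetase genes at 15 min in WT they were 0.62 and 0.62. No test was made of these differences.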

How the data were processed

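Poly(A) libraries were trimmed with fastp 0.23.2 and quantified with Kallisto 0.48.0 against the R64-1-1 transcriptome by the authors, who deposited TPM for 24 libraries and 6612 transcripts. The authors ran DESeq2 on counts. Counts were not used here, so the depth of each library is unknown and no counting error can be given. FastQC 0.11.9 and MultiQC 1.12 are also named in the submitters' processing notes.

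TPM were divided by median-of-ratios size factors over 23 libraries, filtered at a mean TPM of 1 (6357 genes) and put on a log2 scale after a pseudocount of 1, so that fold changes of low genes are understated. All groups were fitted together in R 4.3.3 with limma 3.58.1 (lmFit, eBayes with trend, 11 residual degrees of freedom), with Benjamini-Hochberg adjustment over all genes. An exact permutation test of 2 against 2 samples cannot give a p below 0.333. Alternatives changed the pseudocount, filter, scaling, fold threshold, samples, replicate block, paralog sums and left-out library. Tables came from pandas 2.3.3 with numpy 2.4.6 under Python 3.11.15, and matplotlib 3.10.9 drew the figures.

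The members and lists were chosen with earlier results of these data known. Named genes are the highest and lowest log2 fold change of each class in 4 comparisons (raffinose against YPD in WT, K655/657Q against WT in both media, 15 min against 0 min in WT), the paralog pairs, members called in a difference of responses and, from each other list, the called genes with the highest and lowest change. Genes beyond this rule, such as TIF34, EFB1 at 30 min, TIF5 in K655/657R and the lists of called symbols, were chosen after their values were seen. The motifs were searched in 6001 windows of the RefSeq R64 annotation, in which 5929 of the transcripts were found.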

Additional observations from a re-analysis of the deposited data

Results flagged for a closer look

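Among the 45 members 5 differences of responses passed the test. The effect of K655/657Q relative to WT was lower in raffinose than in YPD for SUI1 by -0.63, for NIP1 by -0.69 and for SUP35 by -0.73, and higher for GUS1 by 0.68, as log2 differences with adjusted p = 9e-05, 0.00063, 0.00046 and 0.00097. For SUI1 the difference lay in YPD, where K655/657Q had 727 and 696 scaled TPM and WT 447 and 450. For NIP1 it lay mainly in raffinose, where K655/657Q had 27.1 and 23.6 and WT 39.1 and 37.5. For SUP35 and GUS1 the signs in the media were opposite. The rise of DED81 to 30 min was smaller in K655/657Q than in WT by -0.65 (adjusted p = 0.00059). GUS1 and DED81 lost their calls in TPM as deposited and scaled to ACT1. Among all genes 20.1% differed in the first test and 4.04% in the second.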

How the results depend on the processing

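Of 1245 alternative values of named genes, 1142 kept their direction and side of the threshold, 64 lost the call, 31 gained one and 8 changed sign. The cause was not tested for any count below. The scalings also moved the median of all genes, and the share of all genes called is not given beside these counts. They therefore do not show a change particular to the members. With a pseudocount of 0.1, 1 member was called for K655/657Q against WT in raffinose. With a pseudocount of 5, 1 was called for 30 min against YPD in K655/657Q and 1 for K655/657Q against WT at 15 min. With a filter at a mean TPM of 10, 1 was called for 30 min against YPD in K655/657Q. In TPM as deposited the counts for raffinose against YPD were 4 for K655/657Q and 7 for WT. K655/657Q against WT gave 1 in YPD, 1 in raffinose, 1 at 15 min and 1 at 30 min. The rise to 15 min gave 7 for K655/657Q and 13 for K655/657R, the rise to 30 min in WT 15, the difference between media 8 and the 30 min difference of responses 0. Upper quartile scaling gave 5 for 30 min against YPD in K655/657Q, and 0 and 2 for K655/657Q against WT at 15 and 30 min. Scaled to ACT1, raffinose against YPD gave 6 in K655/657Q, and K655/657Q against WT 11 in YPD, 2 in raffinose and 12 at 15 min. The rise to 15 min gave 23 for K655/657Q and 37 for K655/657R, and the rise to 30 min in K655/657Q 33. Against YPD 30 min gave 18 for K655/657Q and 41 for WT, and the differences gave 26 between media, 2 for the 15 min response of K655/657R and 0 for the 30 min response of K655/657Q. Without the fold threshold raffinose against YPD gave 42 in K655/657Q, 36 in K655/657R and 35 in WT. K655/657Q against WT gave 24 in YPD, 13 in raffinose, 36 at 15 min and 39 at 30 min, and K655/657R 8 in YPD and 1 in raffinose. The rise to 15 min gave 32 for K655/657Q, 38 for K655/657R and 38 for WT, the rise to 30 min 35 for K655/657Q and 41 for WT, and 30 min against YPD 30 for K655/657Q and 32 for WT. The differences gave 24 between media, 9 for the 15 min and 13 for the 30 min response of K655/657Q. Signs changed when scaled to ACT1 for SUP45 (0.048) and ARC1 (0.025) in WT in raffinose, TIF1 (0.083) and EFT2 (0.065) in K655/657Q in YPD and SES1 (0.12) at 15 min. They also changed for SUP45 in K655/657Q in YPD without WT replicate 2 (-0.074, against 0.098 without replicate 1) and without K655/657Q replicate 2 (-0.049), and for YEF3 in WT raffinose without replicate 1 (-0.047, against 0.13 without replicate 2). Leaving out 1 library at a time, the counts for raffinose against YPD ran from 13 to 16 for K655/657Q, 12 to 15 for K655/657R and 15 to 19 for WT. K655/657Q against WT ran from 2 to 4 in YPD, 0 to 1 in raffinose, 2 to 7 at 15 min and 5 to 12 at 30 min. The rise to 15 min ran from 12 to 16 for K655/657Q, 19 to 22 for K655/657R and 20 to 23 for WT, and the rise to 30 min from 14 to 16, 24 to 28 and 26 to 28 in that order. Against YPD 30 min ran from 1 to 3 for K655/657Q and 13 to 16 for WT, the difference between media from 3 to 6, and the 15 and 30 min responses of K655/657Q from 0 to 2 each. Replicate differences correlated between groups at -0.35 to 0.31 over 16 pairs of groups and 4332 genes. With 2 libraries in a group, this check cannot decide whether the replicate numbers pair the samples. With the replicate number as a block, 21 of 21 counts and 73 of 73 named values kept their call, for instance 17 members down in WT in raffinose. Unknown depth limits every value, since no counting error could be given.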

Other observations

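The 30 min K655/657R replicate 2 library, which entered no comparison, differed from replicate 1 with a rank correlation of -0.63 between its log2 differences and coding length over 45 members. The genes share that library, so the value is a description. TIF4631 (2859 coding bases) had 21.9 scaled TPM in it and 54.6 in replicate 1, and SUI1 (327 coding bases) had 1660 and 1090. Over the 45 members the same rank correlation was 0.42 in K655/657Q and 0.17 in WT for raffinose against YPD, -0.39 for K655/657Q against WT at 15 min and -0.08 at 30 min. The part of transcript length in these differences was not tested.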
